A study of Mus musculus with 18 samples.

Results

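The genes examined were 39 genes of DNA replication, deoxynucleotide synthesis and the G1/S transition, given as a list of symbols and followed in mouse fibroblasts from 3 organs in culture and after transplantation. All 39 symbols matched 1 row each among the 38924 Ensembl genes of the count table, and all 39 were among the 16577 genes that had enough counts to be tested. The donors were 10-week-old male mice on a C57BL/6 background that carry Rosa mT/mG, a reporter at the Rosa locus that gives every cell membrane TdTomato unless Cre is present, and this reporter was shared by all groups. Fibroblasts of the adult heart, kidney and tail grew for 10 days in culture and were then divided. One portion was placed in gelatin foam under the kidney capsule of syngeneic C57BL/6J recipients 10 to 11 weeks old, and 3 days later live CD45- TdTomato+ cells were sorted, which gave 3 transplanted groups, named HFs for heart, KFs for kidney and TFs for tail. The remaining cells were replated for 3 further days and gave the cultured groups HFc, KFc and TFc. Each group had 3 libraries, 18 in all. The paper calls the samples biological replicates, but no source used here says which libraries came from separate donors or recipients. The p-values thus measure the spread between these samples, pooled for each gene over all groups. Libraries within each transplanted group differed more than those within any cultured group, so an SE or p-value is not specific to the groups compared.

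Before a cell copies its DNA, the origin recognition complex, Cdc6 and Cdt1 load the Mcm2-7 helicase onto replication origins, a step called licensing. Cdc45 and the GINS complex then turn the loaded helicase into an active fork, where primase and DNA polymerases alpha, delta and epsilon copy the strands, the clamp Pcna holds the polymerases in place, and Fen1 and Lig1 join the lagging-strand fragments. Ribonucleotide reductase, thymidylate synthase and thymidine kinase supply the deoxynucleotides. Many of these genes are transcribed at the G1/S transition under E2F factors, so in a bulk sample their RNA is widely read as a marker of cells in cycle. A larger share of such cells and more RNA in each of them cannot be told apart in these data.

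Library totals lay between 17927838 and 32245168 counts. The listed genes had between 13 counts (Gins1 in HFs replicate 2) and 5563 counts (Rrm1 in KFc replicate 3) in a library, so none was at or below the 3 counts taken as the floor of detection, which covers counting error only. Levels are given as CPM, counts relative to the library total, scaled to the usual CPM unit after adjusting the library totals by TMM (trimmed mean of M-values), and these replicate values carry no length correction. KFs replicate 3 stood apart from its label. Its Xist level was 1490 CPM against at most 0.404 CPM in the other libraries, and its Y-linked genes summed to 0.719 CPM against 175 to 230 CPM, although the donors were male. The fibroblast markers were Col1a1, Col1a2, Col3a1, Pdgfra, Pdgfrb, Dcn, Lum and Thy1, none at or under 3 counts in a whole group. Lum was near or under this floor in KFc, at 0.224, 0.0349 and 0.0997 CPM. The 8 markers summed to between 12300 and 16000 CPM in the cultured libraries and 30800 to 123000 CPM in the transplanted libraries other than KFs replicate 3, which had 17800 CPM. Of these 8, 6 were called higher in HFs, 6 in KFs and 5 in TFs. Thy1 was called lower in HFs, with a log2 fold change of -1.91 (SE 0.27). Markers of kidney tubule were also present after sorting. The 8 proximal tubule genes summed to between 72.4 and 1060 CPM in HFs, 52.8 and 110 CPM in KFs and 118 and 291 CPM in TFs, against 22.4 to 25 CPM in HFc, 103 to 111 CPM in KFc and 19.5 to 21.8 CPM in TFc, and all 8 passed the test as higher in HFs and TFs and 6 of 8 in KFs. Most of the proximal tubule sum in KFc was Lrp2, at 99.2, 98.3 and 92.0 CPM. Lrp2 was at 45.1, 22.7 and 55.1 CPM in KFs. Slc34a1, Slc27a2, Kap and Slc22a6 were at 0 CPM in every KFc library. The 5 genes of the loop, distal tubule and duct summed to at most 0.365 CPM in cultured and 11.8 to 81 CPM in transplanted libraries. The 6 macrophage and leukocyte genes summed to between 380 and 399 CPM in KFc but 11.4 to 136 CPM in KFs. In TFc they summed to between 166 and 195 CPM, and in TFs to between 35.9 and 42.1 CPM. In heart cells the same 6 genes summed to between 79.8 and 93.1 CPM in HFc and 83.8 and 146 CPM in HFs. The 6 endothelial genes summed to between 34.6 and 42.4 CPM in cultured libraries, 57.7 and 66 CPM in HFs, 24 and 45.2 CPM in KFs and 41.4 and 44.8 CPM in TFs. Of these 6, 5 were called higher in HFs, 3 in KFs and 3 in TFs, and 1 lower in KFs. The part of these other cells in the results below was not tested.

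The replication genes formed opposite orders in the 2 states. The mean of log2(CPM + 1) over the 39 genes was 4.09 to 4.16 in the HFc libraries, 3.83 to 3.86 in TFc and 3.38 to 3.41 in KFc, with no overlap between these groups. After transplantation it was 3.17 to 3.48 in HFs, 3.73 to 4.38 in TFs and 3.99 to 4.66 in KFs. Heart cells thus had the highest level in culture and the lowest after transplantation, with every HFs library below every other transplanted library, while the ranges of TFs and KFs overlapped. For 31 of the 39 genes the group means in culture stood in the order HFc, TFc, KFc, and for 28 genes those of transplanted cells stood in the order KFs, TFs, HFs. The shares of all genes in these orders were not computed.

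**Figure D1:**
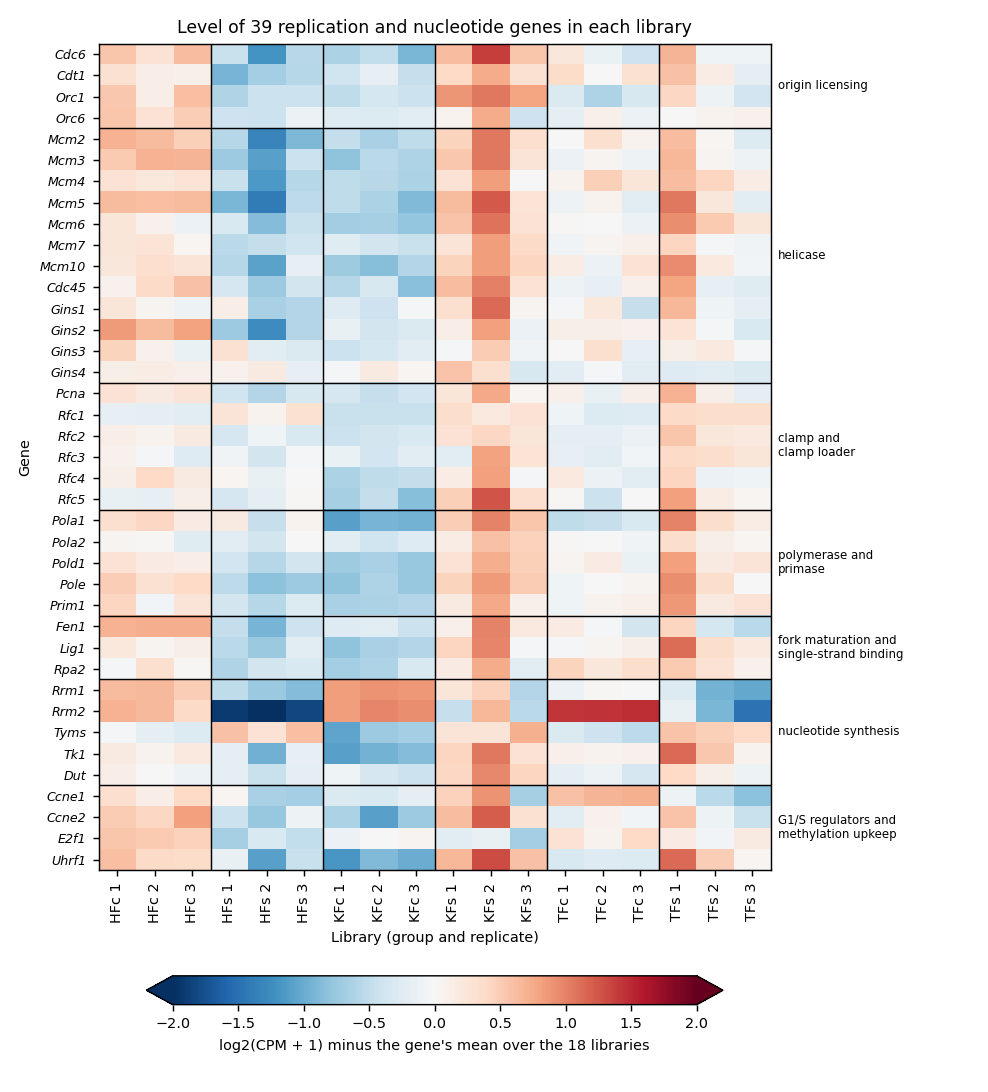
Level of each of the 39 genes (rows, grouped by role) in each of the 18 libraries (columns), as log2(CPM + 1) minus the mean of that gene over all libraries, with colours capped at the ends of the scale. Most rows are red in HFc and KFs and blue in HFs and KFc, whereas Rrm1 and Rrm2 are red in KFc and Tyms is red in HFs.

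The summed CPM of the 39 genes ran from 879 to 1329 over the KFs libraries and from 677 to 701 over the KFc libraries. KFs replicate 2 had the highest value of its group for 36 of 39 genes and the highest of all 18 libraries for 25, and KFs replicate 3 had the lowest value of its group for 29. TFs replicate 1 was the highest of its group for 35 genes and TFs replicate 3 the lowest for 33. HFs replicate 2 was the lowest of its group for 28 genes, and it also had the highest proximal tubule sum of all libraries, 1060 CPM. KFs replicate 2 had the lowest proximal tubule sum of KFs, 52.8 CPM, of which 22.7 CPM was Lrp2. TFs replicate 1 had the highest of TFs, 291 CPM. In the cultured groups no library was highest for more than 21 genes.

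**Figure D2:**
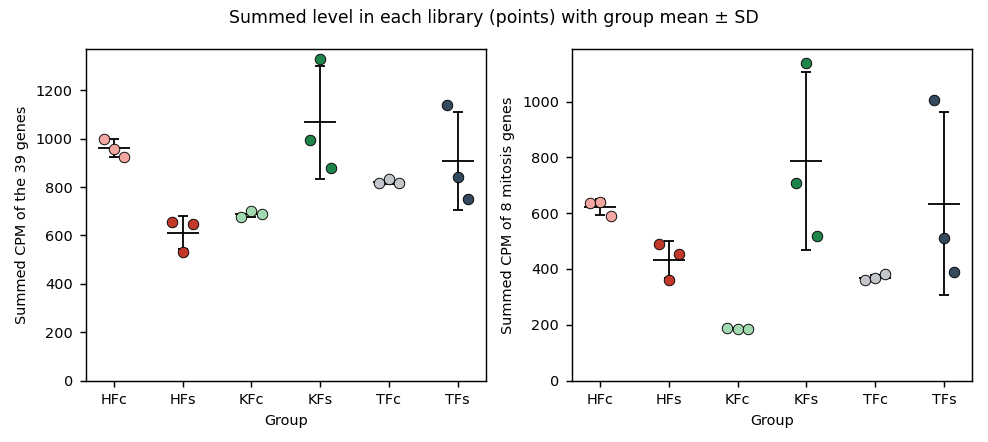
Summed CPM of the 39 genes (left) and of 8 mitosis genes (right) in each library, with replicates 1 to 3 from left to right in each group and bars for the group mean and SD of 3 libraries. The sums of the 39 genes were 924 to 998 in HFc and 532 to 654 in HFs, and 677 to 701 in KFc and 879 to 1329 in KFs.

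The comparison of transplanted with cultured cells asks how these genes differed after transplantation to the same site, the kidney capsule, in fibroblasts of each organ. Transplanted cells also went through gelatin foam, surgery and sorting, while the cultured cells were replated. The site cannot be told apart from these steps. Genes were called by edgeR's quasi-likelihood test at a Benjamini-Hochberg adjusted p below 0.05 together with a log2 fold change above 1 or below -1. In heart cells 14 of the 39 genes were lower and 0 higher after transplantation, while 9.33% of all genes tested were lower and 18.3% higher. In kidney cells 21 were higher and 0 lower, against 14.7% higher and 7.99% lower of all genes. In tail cells 1 was higher and 2 were lower, against 11% and 5.53% of all genes. DESeq2 called 13 genes in heart, 21 in kidney and 3 in tail cells. By the adjusted p alone, 26 genes were lower and 2 higher in HFs (28.4% and 28% of all genes), 32 higher and 2 lower in KFs (26.1% and 22.7%), and 8 higher and 3 lower in TFs (18.6% and 20.2%). Over the 39 genes the log2 fold change had a median of -0.74 in heart (range -2.68 to 0.66), 1.15 in kidney (-0.93 to 1.99) and 0.31 in tail cells (-2.25 to 1.02), beside medians of 0.05, 0.09 and 0 over all genes.

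Groups did not overlap in heart cells for 32 of the 39 genes, with HFs below HFc for 30 and above for 2, while of all genes tested 34% lay below and 33.3% above. In kidney cells they did not overlap for 35, with KFs above KFc for 32 and below for 3, against 26.2% and 25% of all genes. In tail cells they did not overlap for 16 genes, 13 higher and 3 lower, against 29.3% and 31.2% of all genes. The fold change was negative in heart and positive in kidney cells for 34 genes, and 22 genes passed the adjusted p in both. The 5 other genes were Rfc1, Rrm1, Rrm2, Tyms and E2f1. The change in tail cells lay between those of heart and kidney for 35 genes. The shares of all genes with these joint patterns were not computed. For the 28 genes not called in tail cells by the adjusted p, log2 fold changes lay between -0.17 and 0.70 with a median SE of 0.24.

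**Figure D3:**
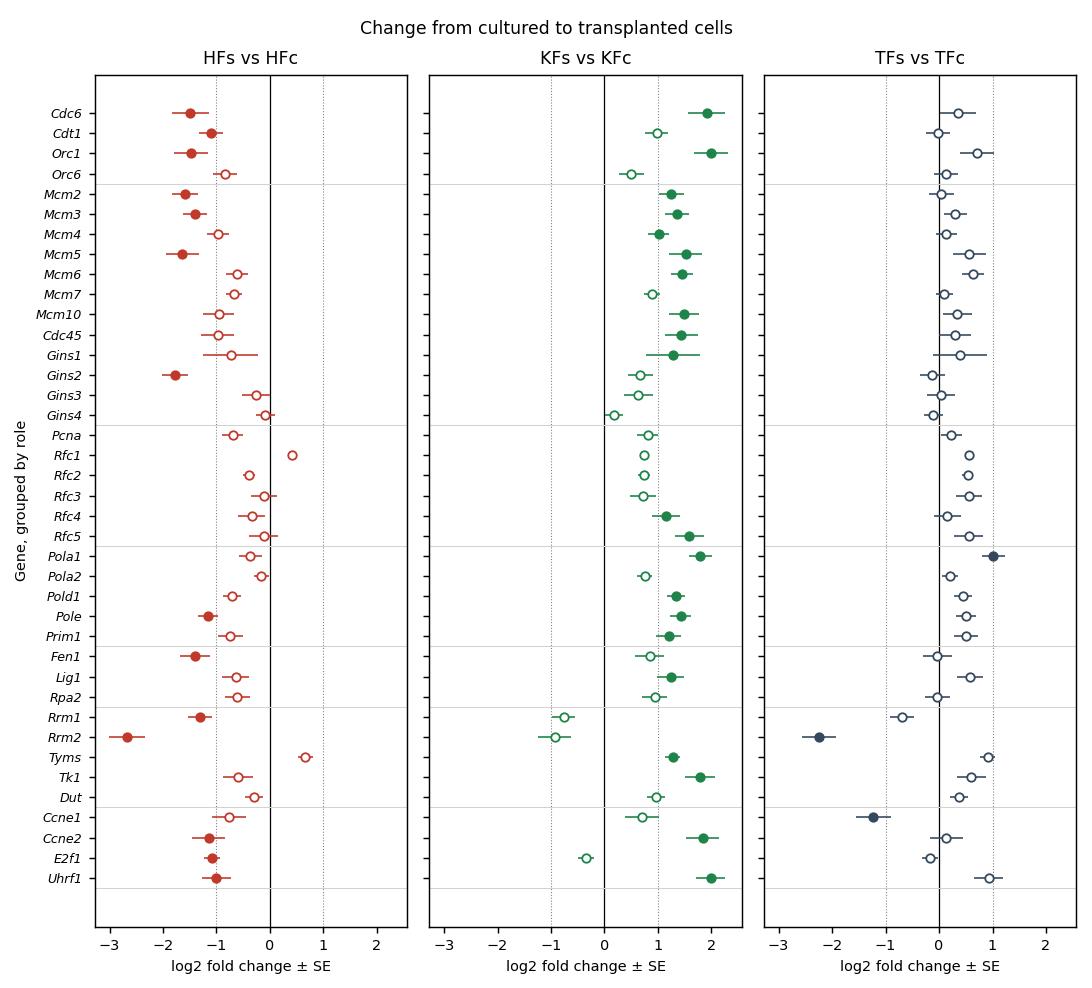
Log2 fold change with its SE for each of the 39 genes (rows) in HFs against HFc, KFs against KFc and TFs against TFc, with filled points for genes past both thresholds and dotted lines at -1 and 1. Points lie mostly left of 0 in heart cells, right of 0 in kidney cells and near 0 in tail cells, and Rrm2 lies left of 0 in all 3.

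Leaving out KFs replicate 3, the library that went against its label, gave 24 higher and 0 lower genes in kidney cells, among them all 21 of the full fit. Leaving out KFs replicate 2, the highest, gave 15 higher and 2 lower, with a median log2 fold change of 0.75 in place of 1.15. Without HFs replicate 2, 12 genes were lower in heart cells. Without TFs replicate 1, 2 genes were lower and 0 higher in tail cells, and the median fold change in tail cells dropped to 0.02.

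The licensing genes included the pair with the widest contrast between heart and kidney cells, Orc1 and Cdc6. Orc1, the largest subunit of the origin recognition complex, was at 3.06, 2.06 and 3.24 CPM in HFc and at 0.841, 1.06 and 1.06 CPM in HFs. In kidney cells it was at 0.969, 1.19 and 1.06 CPM in KFc and at 4.16, 4.81 and 3.84 CPM in KFs. Tail cells had 1.28, 0.824 and 1.23 CPM in TFc and 2.73, 1.59 and 1.14 CPM in TFs. All HFs libraries were below all HFc libraries and all KFs libraries above all KFc libraries, whereas the tail groups overlapped. The log2 fold change of Orc1 was -1.48 (SE 0.32, adjusted p = 0.000992) in heart, 1.99 (SE 0.31, adjusted p = 0.0001) in kidney and 0.70 (SE 0.32, adjusted p = 0.0895) in tail cells by edgeR's quasi-likelihood test.

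Cdc6, the ATPase that recruits the helicase to the origin complex, had 7.28, 5.85 and 7.66 CPM in HFc and 3.13, 1.45 and 2.85 CPM in HFs. Kidney cells had 2.61, 3.00 and 1.99 CPM in KFc and 7.597, 13.7 and 7.27 CPM in KFs. Tail cells had 5.58, 4.16 and 3.24 CPM in TFc and 8.02, 4.31 and 4.32 CPM in TFs. HFs libraries were again below HFc and KFs above KFc without overlap, and KFs replicate 2 was the highest of all. The log2 fold changes were -1.49 (SE 0.35) in heart and 1.91 (SE 0.34) in kidney, both called, and 0.35 (SE 0.34) in tail cells. Cdt1, the loading partner of Cdc6, fell by 1.10 on the log2 scale in heart cells and had a fold change of 0.98 in kidney cells, which passed the adjusted p but not the fold limit. Orc6, the smallest subunit of the origin complex, passed the adjusted p as lower in heart cells (-0.84) and not in kidney cells (0.50, adjusted p = 0.0764 by edgeR's quasi-likelihood test).

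The promoter stretches of Orc1 and Cdc6 are shown because these genes rose most among the licensing genes in kidney cells and hold words of the kind known as E2F motifs. Binding was not measured. They were read from RefSeq on GRCm38.p6 and are written 5′ to 3′ on the strand of the gene, with the letters TTTGGCGC, TTTCCCGC, TTTCGCGC or TTTGCCGC, or their reverse complements, in capitals. The Orc1 stretch, chr4:108579334-108579446 on the plus strand, ends 8 bases before the RefSeq start and covers 24 bases of a non-coding Orc1 exon in GENCODE M21, with 3 bases of a Prpf38a exon on the other strand. The Cdc6 stretch, chr11:98907956-98908075 on the plus strand, starts 195 bases before the RefSeq start, and GENCODE places 26 of its bases in a non-coding Cdc6 exon.
Orc1: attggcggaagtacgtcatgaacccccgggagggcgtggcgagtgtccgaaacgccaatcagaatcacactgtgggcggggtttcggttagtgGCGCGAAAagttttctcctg
Cdc6: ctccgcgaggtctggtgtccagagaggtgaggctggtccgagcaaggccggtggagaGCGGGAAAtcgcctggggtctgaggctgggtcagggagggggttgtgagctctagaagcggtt

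Of the 12 helicase genes, 4 fell in heart cells and 8 rose in kidney cells past both thresholds, and 0 were called in tail cells, where Mcm6 alone passed the adjusted p. Mcm5, a subunit of the helicase ring, had 24.4, 23.9 and 24.4 CPM in HFc and 7.69, 5.20 and 10.4 CPM in HFs. In kidney cells the values were 10.6, 9.60 and 7.91 CPM in KFc and 24.3, 37.2 and 18.8 CPM in KFs. In tail cells they were 14.2, 16.1 and 13.1 CPM in TFc and 33.1, 18.2 and 13.2 CPM in TFs. The heart and kidney groups did not overlap, and in tail cells TFs replicates 1 and 2 exceeded every TFc library while replicate 3 lay within their range. Mcm5 changed by -1.63 (SE 0.32, adjusted p = 0.000423) in heart, 1.52 (SE 0.31, adjusted p = 0.000858) in kidney and 0.57 (SE 0.31, adjusted p = 0.155) in tail cells on the log2 scale by edgeR's quasi-likelihood test.

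Mcm2, another subunit of the ring, had 35.7, 34.4 and 30.5 CPM in HFc, 14.3, 8.11 and 11.2 CPM in HFs, 15.4, 13.5 and 14.9 CPM in KFc and 30.02, 46.3 and 27.6 CPM in KFs. In tail cells it was at 21.8, 27.4 and 22.8 CPM in TFc and 33.8, 22.4 and 17.9 CPM in TFs, with TFs libraries on both sides of TFc. Its log2 fold changes were -1.59 (SE 0.24), 1.25 (SE 0.24) and 0.04 (SE 0.24) in heart, kidney and tail cells. Mcm3 changed by -1.41 and 1.36 in heart and kidney cells and was called in both. Mcm4, Mcm6 and Mcm10, the last a factor that helps activate the helicase, were called in kidney cells (1.01, 1.44 and 1.49) and passed only the adjusted p in heart cells (-0.98, -0.62 and -0.96). Mcm7 passed only the adjusted p in both (-0.68 and 0.89), and 9.49% of its 75-base windows are shared with another gene, Gm5487, so a part of its reads could have been divided between them.

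The GINS subunits did not move together. Gins2 had 18.1, 15.5 and 17.4 CPM in HFc and 5.41, 3.44 and 6.03 CPM in HFs, and in kidney cells 8.54, 7.19 and 7.67 CPM in KFc and 10.6, 17.8 and 8.79 CPM in KFs. In tail cells it was at 10.5, 10.6 and 10.2 CPM in TFc and 11.8, 9.40 and 7.59 CPM in TFs. The HFs libraries were the 3 lowest of all 18, and the HFc libraries lay above them without overlap. Gins2 fell by 1.78 (SE 0.25, adjusted p = 2.28e-05) on the log2 scale in heart cells, and its change of 0.67 (SE 0.24, adjusted p = 0.0297) in kidney cells was below the fold limit in edgeR's quasi-likelihood test. Gins1 rose by 1.29 in kidney cells with the largest SE of the list, 0.51, on low counts, and was at -0.73 (adjusted p = 0.243) in heart cells by the same edgeR test. Gins3 and Gins4 passed no threshold in any organ, with log2 fold changes between -0.26 and 0.64. Cdc45, which binds GINS in the active helicase, was called in kidney cells (1.44) and passed the adjusted p in heart cells (-0.98).

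Promoters of 2 helicase genes are shown because both hold more than 1 match to the E2F letters, in capitals, and both moved in opposite directions in heart and kidney cells. The Mcm5 stretch is chr8:75109301-75109420 on the plus strand, starting 208 bases before the RefSeq start. The Mcm6 stretch is chr1:128359721-128359840 on the minus strand, starting 135 bases before the start. GENCODE M21 has no gene under either stretch, and matches that overlap share capitals, 2 in Mcm5 and 3 in Mcm6.
Mcm5: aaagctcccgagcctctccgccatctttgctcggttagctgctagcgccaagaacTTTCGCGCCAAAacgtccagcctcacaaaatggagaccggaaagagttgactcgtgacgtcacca
Mcm6: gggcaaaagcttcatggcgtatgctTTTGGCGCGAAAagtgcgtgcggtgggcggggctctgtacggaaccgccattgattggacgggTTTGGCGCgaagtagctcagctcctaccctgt

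Of the 6 genes of the clamp and its loader, 2 rose in kidney cells past both thresholds and 0 were called in heart and tail cells, where 3 and 2 passed edgeR's adjusted p alone. Pcna, the sliding clamp, had 34.3, 31.6 and 33.6 CPM in HFc and 21.0, 18.2 and 22.2 CPM in HFs. Kidney cells had 21.8, 19.9 and 21.1 CPM in KFc and 33.0, 47.9 and 28.8 CPM in KFs. Tail cells had 29.96, 25.1 and 30.3 CPM in TFc and 45.6, 30.2 and 24.6 CPM in TFs. The heart and kidney groups did not overlap and the tail groups did. Log2 fold changes were -0.69 (SE 0.20), 0.81 (SE 0.20) and 0.23 (SE 0.20) in heart, kidney and tail cells, the first 2 past the adjusted p only. Of its windows 13.8% are shared with the pseudogene Pcna-ps2, so its count is uncertain to that extent.

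Among the loader subunits, Rfc4 (1.15) and Rfc5 (1.58) were called in kidney cells, while Rfc2 and Rfc3 passed only the adjusted p there (0.74 and 0.72). Rfc1, the large subunit, differed from the others in that it was higher in transplanted cells of all 3 organs by the adjusted p, by 0.41, 0.73 and 0.57 on the log2 scale in heart, kidney and tail cells. Its libraries ranged from 94.1 to 98.1 CPM in HFc and 116 to 135 CPM in HFs, from 80.1 to 80.5 CPM in KFc and 125 to 140 CPM in KFs. In tail cells it ranged from 90.7 to 104 CPM in TFc and 140 to 143 CPM in TFs. Rfc2 was at 16.0, 15.3 and 16.6 CPM in HFc and 11.2, 13.6 and 11.5 CPM in HFs, at 10.5, 11.0 and 11.5 CPM in KFc and 17.98, 19.7 and 17.3 CPM in KFs. In tail cells it was at 12.5, 12.6 and 13.3 CPM in TFc and 21.6, 17.2 and 16.8 CPM in TFs. Rfc2 was thus lower after transplantation in heart cells and higher in kidney and tail cells, each without overlap.

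All 5 polymerase and primase genes passed the adjusted p as higher in kidney cells, and 4 of them passed the fold limit. Pola1, the catalytic subunit of polymerase alpha, was the only one of the 39 genes that rose past both thresholds in tail cells. It had 13.02, 13.5 and 15.3 CPM in TFc and 38.8, 24.6 and 21.2 CPM in TFs, and in kidney cells 8.39, 9.56 and 9.40 CPM in KFc, and 27.1, 38.9 and 28.5 CPM in KFs. Heart cells had 23.9, 25.8 and 21.4 CPM in HFc and 21.8, 13.6 and 19.9 CPM in HFs. The transplanted libraries were above the cultured ones in tail and kidney cells, and the heart groups overlapped. By edgeR's quasi-likelihood test the log2 fold change was 1.02 (SE 0.21, adjusted p = 0.00151) in tail, 1.79 (SE 0.22, adjusted p = 8.28e-06) in kidney and -0.36 (SE 0.21, adjusted p = 0.153) in heart cells. Without TFs replicate 1, Pola1 was no longer called in tail cells. The same held when KFs replicate 3 was left out of the fit.

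The Pola1 stretch is shown as that of the gene which rose in tail cells. It lies at chrX:93632231-93632350 on the minus strand, starts 195 bases before the RefSeq start, lies under no GENCODE gene, and has the E2F letters in capitals.
Pola1: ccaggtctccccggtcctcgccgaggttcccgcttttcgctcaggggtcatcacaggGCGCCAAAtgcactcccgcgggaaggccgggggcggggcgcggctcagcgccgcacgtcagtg

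Pole, the catalytic subunit of the leading-strand polymerase epsilon, had 24.6, 21.4 and 22.8 CPM in HFc and 11.7, 9.21 and 9.98 CPM in HFs. Kidney cells had 9.36, 10.8 and 9.70 CPM in KFc and 23.6, 31.6 and 24.8 CPM in KFs. Tail cells had 16.1, 17.2 and 17.8 CPM in TFc and 33.5, 22.1 and 17.0 CPM in TFs. Only in tail cells did the groups overlap, through TFs replicate 3. It changed by -1.16 (SE 0.19) in heart and 1.42 (SE 0.19) in kidney cells, both called, and by 0.51 (SE 0.19) in tail cells, past the adjusted p only. Pold1, the catalytic subunit of polymerase delta, and Prim1, the catalytic primase subunit, were called in kidney cells (1.33 and 1.199) and passed the adjusted p in heart cells (-0.70 and -0.74). Pola2, the regulatory subunit of polymerase alpha, changed by -0.16, 0.75 and 0.20 in heart, kidney and tail cells, with only the kidney value past the adjusted p.

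Of the genes that finish the new strand, Fen1, the flap endonuclease, was called in heart cells (-1.40) and Lig1, the DNA ligase of the lagging strand, in kidney cells (1.24). In the other organ of this pair each passed the adjusted p alone, Fen1 at 0.85 in kidney and Lig1 at -0.64 in heart cells. Rpa2, a subunit of the single-strand binding protein, passed the adjusted p in both (-0.61 and 0.94).

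The genes of nucleotide synthesis split. Rrm2 encodes the small, cell cycle-regulated subunit of ribonucleotide reductase, and it fell most of all 39 genes in both heart and tail cells. Its values were 56.7, 55.2 and 45.5 CPM in HFc and 8.53, 6.96 and 9.11 CPM in HFs, and 95.6, 96.3 and 98.8 CPM in TFc and 31.5, 18.03 and 11.8 CPM in TFs. In kidney cells it was at 62.7, 69.4 and 67.1 CPM in KFc and 25.0, 55.8 and 23.6 CPM in KFs. Transplanted libraries were below cultured ones in every organ without overlap, and KFs replicate 2 came nearest to its cultured group. The log2 fold change was -2.68 (SE 0.34, adjusted p = 7.65e-06) in heart, -2.25 (SE 0.32, adjusted p = 6.77e-05) in tail and -0.93 (SE 0.31, adjusted p = 0.0209) in kidney cells by edgeR's quasi-likelihood test, the last below the fold limit.

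Rrm1, the large catalytic subunit of the same enzyme, was also lower in all 3 organs by the adjusted p. It ranged from 141 to 158 CPM in HFc and 55.0 to 70.3 CPM in HFs, from 180 to 188 CPM in KFc and 66.5 to 139 CPM in KFs. In tail cells it ranged from 92.6 to 103 CPM in TFc and 48.9 to 82.8 CPM in TFs. The groups did not overlap in any organ, and the log2 fold changes were -1.30 (SE 0.22), -0.76 (SE 0.22) and -0.69 (SE 0.22) in heart, kidney and tail cells, of which the first was called.

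Tyms, thymidylate synthase, went the other way. Heart cells had 47.1, 42.1 and 39.3 CPM in HFc and 72.1, 58.8 and 72.8 CPM in HFs, kidney cells 22.4, 28.3 and 29.3 CPM in KFc and 57.4, 57.3 and 78.8 CPM in KFs. Tail cells had 38.9, 35.3 and 32.8 CPM in TFc and 70.9, 66.7 and 63.3 CPM in TFs. Every transplanted library was above every cultured library of its organ. The log2 fold changes were 0.66 (SE 0.14), 1.27 (SE 0.14) and 0.91 (SE 0.14), all past the adjusted p and the kidney value also past the fold limit. Tk1, the thymidine kinase of S phase, had 11.3, 10.3 and 11.4 CPM in HFc, 8.59, 4.58 and 8.69 CPM in HFs, 4.10, 4.61 and 4.92 CPM in KFc, 13.6, 21.4 and 12.2 CPM in KFs. Tail cells had 10.6, 10.4 and 10.4 CPM in TFc and 22.7, 14.8 and 10.4 CPM in TFs. It rose by 1.79 (SE 0.28) in kidney cells, and its changes of -0.60 (SE 0.28) in heart and 0.60 (SE 0.27) in tail cells did not pass. Dut, the dUTPase that keeps uracil out of DNA, passed the adjusted p in kidney cells only, at 0.95.

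The promoters of Rrm2 and Tyms are shown because their RNA moved in the same direction in all 3 organs, unlike most of the list, and because the 250 bases before the RefSeq start held none of the E2F letters, so nothing is in capitals. The Rrm2 stretch, chr12:24708004-24708253 on the plus strand, covers 13 bases of a non-coding Rrm2 exon in GENCODE M21. The Tyms stretch, chr5:30073626-30073875 on the minus strand, lies under no GENCODE gene. That these letters are missing says nothing about factors bound there. Mcm2, Mcm10, Cdc45 and Pcna, which were lower in heart and higher in kidney cells by the adjusted p, held none either. Gins3, which passed no threshold, held 1, so the promoters printed here do not show that the letters go with the response.
Rrm2: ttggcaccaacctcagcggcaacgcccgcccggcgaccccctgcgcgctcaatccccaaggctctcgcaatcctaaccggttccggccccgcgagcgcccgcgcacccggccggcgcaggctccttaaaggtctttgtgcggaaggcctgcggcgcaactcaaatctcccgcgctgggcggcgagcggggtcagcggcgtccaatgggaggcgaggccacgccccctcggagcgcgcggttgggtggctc
Tyms: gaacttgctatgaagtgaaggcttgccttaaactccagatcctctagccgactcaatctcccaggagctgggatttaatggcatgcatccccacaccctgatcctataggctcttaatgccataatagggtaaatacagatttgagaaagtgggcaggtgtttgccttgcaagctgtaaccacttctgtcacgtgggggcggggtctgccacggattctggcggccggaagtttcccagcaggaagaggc

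**Figure D4:**
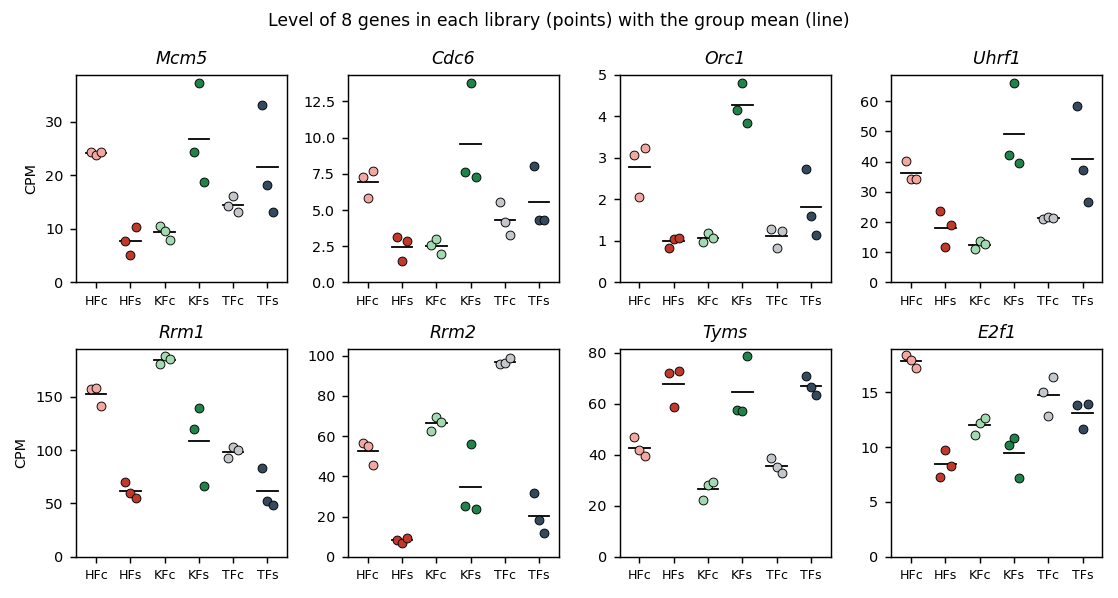
CPM of 8 of the genes in each library, with replicates 1 to 3 from left to right in each group, a line for the group mean, and a linear axis from 0 in each panel. Mcm5, Cdc6, Orc1 and Uhrf1 were low in HFs and KFc and high in HFc and KFs, Rrm1 and Rrm2 were lower in the transplanted group of every organ, and Tyms was higher there.

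Among the regulators of the G1/S transition, the cyclins E differed between organs. Ccne1, an activator of Cdk2, had 16.2, 17.3 and 17.6 CPM in TFc and 9.58, 6.81 and 5.47 CPM in TFs, without overlap. It had 13.4, 11.5 and 14.0 CPM in HFc, 10.7, 6.26 and 6.15 CPM in HFs, 8.31, 8.20 and 9.003 CPM in KFc and 14.7, 20.2 and 6.23 CPM in KFs. KFs replicate 3 was below all KFc libraries while the other KFs libraries were above them. The log2 fold change of Ccne1 was -1.23 (SE 0.32, adjusted p = 0.00738) in tail, -0.76 (SE 0.32, adjusted p = 0.0553) in heart and 0.70 (SE 0.32, adjusted p = 0.083) in kidney cells by edgeR's quasi-likelihood test.

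Ccne2, the other cyclin E, had 9.43, 8.83 and 11.99 CPM in HFc, 4.45, 3.35 and 5.84 CPM in HFs, 3.73, 2.44 and 3.46 CPM in KFc, 10.2, 16.0 and 8.11 CPM in KFs. Tail cells had 5.34, 6.79 and 6.09 CPM in TFc and 9.84, 5.81 and 4.41 CPM in TFs. It followed the helicase genes, with log2 fold changes of -1.14 (SE 0.31) in heart and 1.84 (SE 0.31) in kidney cells, both called, and 0.14 (SE 0.31) in tail cells. E2f1, a transcription factor of the G1/S genes, had 18.4, 17.97 and 17.2 CPM in HFc, 7.27, 9.69 and 8.31 CPM in HFs, 11.1, 12.2 and 12.6 CPM in KFc, 10.2, 10.8 and 7.19 CPM in KFs. Tail cells had 15.0, 12.9 and 16.4 CPM in TFc and 13.8, 11.6 and 13.9 CPM in TFs. It fell by 1.08 (SE 0.15, adjusted p = 2.58e-05, edgeR's quasi-likelihood test) on the log2 scale in heart cells. In kidney cells, where most of the list rose, its value was -0.35 (SE 0.15, adjusted p = 0.0717, same edgeR test), with KFs libraries below KFc without overlap.

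Uhrf1, which helps maintain DNA methylation on newly copied strands, had 40.1, 34.2 and 34.1 CPM in HFc and 23.5, 11.8 and 19.0 CPM in HFs, 11.1, 13.6 and 12.7 CPM in KFc and 42.0, 66.1 and 39.5 CPM in KFs. Tail cells had 21.0, 21.8 and 21.4 CPM in TFc and 58.4, 37.1 and 26.8 CPM in TFs. None of these pairs of groups overlapped. It was lower in heart (-1.003, SE 0.27) and higher in kidney cells (1.98, SE 0.28), both called, and its 0.93 (SE 0.27) in tail cells passed the adjusted p only. Of its windows 9.05% are shared with Gm5648. Its stretch, chr17:56304071-56304190 on the plus strand, lies before one of its RefSeq starts, within an intron of Uhrf1 in GENCODE M21, and is shown with the E2F letters in capitals as that of a gene that rose about as much as Orc1 in kidney cells.
Uhrf1: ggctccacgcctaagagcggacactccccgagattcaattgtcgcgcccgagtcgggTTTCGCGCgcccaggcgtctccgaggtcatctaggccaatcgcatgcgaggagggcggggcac

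The difference between organs in the response itself was tested with interaction contrasts in edgeR at an adjusted p below 0.05, which share the libraries of the organ common to a pair. The response of heart cells was more negative than that of kidney cells for all 39 genes, and 34 passed the test, against 15.5% of all genes in this direction, with a median difference of -1.94 beside -0.03 over all genes. The 5 genes that did not pass were Gins1, Gins3, Gins4, Rfc3 and Rrm1. Pole (-2.58, SE 0.27, adjusted p = 1.71e-05) and Mcm3 (-2.76, SE 0.32, adjusted p = 4.10e-05) had the smallest adjusted p in edgeR's quasi-likelihood test, and Orc1 the largest difference, -3.47 (SE 0.45). Mcm3 had 40.6, 46.0 and 45.4 CPM in HFc, 16.5, 12.6 and 20.6 CPM in HFs, 15.6, 19.0 and 17.8 CPM in KFc and 41.1, 59.3 and 33.5 CPM in KFs. Tail cells had 25.6, 29.2 and 26.1 CPM in TFc and 44.8, 29.2 and 26.0 CPM in TFs. Without KFs replicate 3, 35 genes passed, 32 of them among the 34.

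Against tail cells, the heart response was more negative for 25 genes and more positive for 0 by the same test, with 12.7% of all genes more negative. Pole (-1.67, SE 0.27, adjusted p = 0.000467) and Rfc2 (-0.93, SE 0.16, adjusted p = 0.000698) had the smallest adjusted p in edgeR. Without HFs replicate 2 the count was 15, and without TFs replicate 1 it was 16. The kidney response was more positive than that of tail cells for 8 genes, Mcm2, Mcm3, Mcm7, Cdc6, Pold1, Pole, Ccne1 and Ccne2, against 4.99% of all genes. Ccne1 (1.92, SE 0.45, adjusted p = 0.0132) and Ccne2 (1.70, SE 0.43, adjusted p = 0.0198) led this comparison in edgeR. This count moved with single libraries, from 1 without TFc replicate 2 and 2 without KFs replicate 2 to 21 without KFs replicate 3 and 24 without TFs replicate 1.

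Organs were also compared within each state, by edgeR at an adjusted p below 0.05. In culture 29 of the 39 genes were higher in HFc than in KFc and 0 lower, against 15.1% of all genes higher, with a median log2 fold change of 0.82. Ccne2 (1.65, SE 0.31), Uhrf1 (1.54, SE 0.27) and Cdc6 (1.45, SE 0.34) differed most, and Rrm1 (-0.27) and Rrm2 (-0.34) were the only genes with negative values, neither past the test. Against TFc, 8 genes were higher and 1, Rrm2 (-0.88, SE 0.31), was lower in HFc, where 20.9% and 21% of all genes were called. In KFc 18 genes were lower and 1, Rrm1 (0.90, SE 0.22), was higher than in TFc, against 18.5% and 17.8% of all genes. Leaving out any 1 cultured library cut these counts against TFc to between 2 and 4 for HFc and between 9 and 13 for KFc.

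After transplantation 30 genes were lower in HFs than in KFs and 0 higher, against 19% of all genes lower, with a median of -1.03. Of these, 24 were among the 29 genes that had been higher in HFc than in KFc. The share of all genes with both calls was not computed. Orc1 (-2.10, SE 0.32), Rrm2 (-2.09, SE 0.33) and Cdc6 (-1.95, SE 0.35) differed most. Fitted on these 2 groups alone, 12 genes were called, and without KFs replicate 3 in the full fit 33 were. HFs was also lower than TFs for 22 genes and higher for 0, against 12.7% of all genes lower, and this count was 14 without HFs replicate 2 or without TFs replicate 1.

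KFs and TFs differed least. Orc1, Gins4, Rrm1, Ccne1 and Dut were higher in KFs and E2f1 was lower, against 15.3% and 13.8% of all genes, and the groups did not overlap for 3 of the 39 genes, against 35.1% of all genes. Without KFs replicate 3, 12 genes were higher and 0 lower, and without TFs replicate 1 13 were called. Without KFs replicate 2, 2 were called and the median fold change was 0.01, and without TFs replicate 3, 1 was called. Fitted on these 2 groups alone, edgeR called 0 genes, with 2 at an unadjusted p below 0.05, and DESeq2 on all groups called 9. A difference of the list between KFs and TFs was therefore not detected in every fit.

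**Figure D5:**
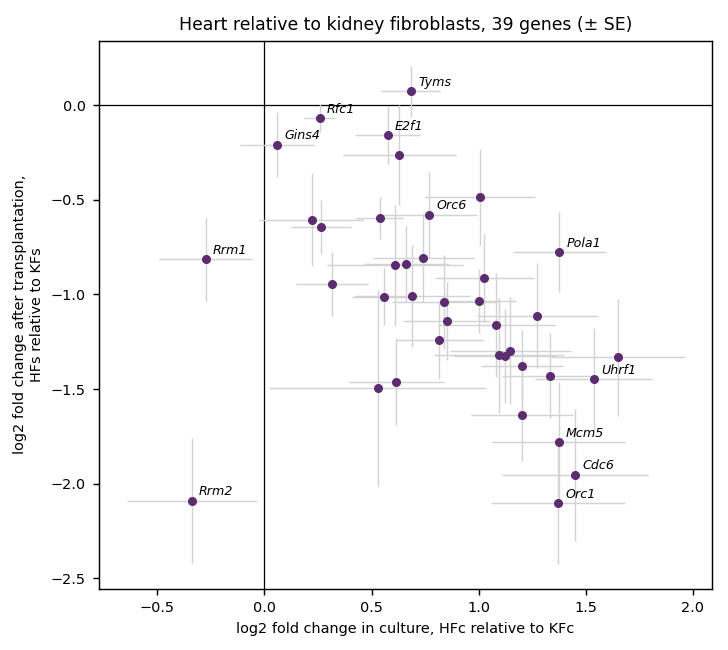
Log2 fold change of heart relative to kidney fibroblasts in culture (horizontal axis, HFc against KFc) and after transplantation (vertical axis, HFs against KFs) for the 39 genes, with SEs, from libraries not shared between the axes. Of the points, 37 lie right of 0 and 38 below 0, with Rrm1 and Rrm2 to the left and Tyms just above 0.

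Corrected for the length of the annotated exons, the most abundant gene was Rrm2 in TFc, at a group mean of 35.0 CPM per kilobase, and it was at 7.38 in TFs and 2.96 in HFs. Rfc1 had between 13.3 and 23.5 CPM per kilobase in all groups and was the highest of the list in HFs, KFs and TFs. Mcm4 ranged from 6.57 in HFs to 14.4 in KFs on this scale, and Orc1 was at 0.28 CPM per kilobase in HFs. The counts of different genes were compared on this scale only here, since the values above are not corrected for length.

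Other genes of the same pathways were followed with lists that overlap none of the 39. Of 13 further licensing and origin firing genes, 6 rose in kidney cells and 0 were called in heart cells at both thresholds. Cdc7, the kinase that fires origins, changed by 2.18 (SE 0.25) and Ticrr, a factor that loads Cdc45, by 1.83 (SE 0.42) in kidney cells, and Cdc7 also rose in tail cells (1.38, SE 0.24). Of 18 further polymerase and fork genes, 7 rose and 1 fell in kidney cells, with Pole2 (2.44, SE 0.32) and Wdhd1 (1.70, SE 0.24) rising and Pold4, a small subunit of polymerase delta, falling by 1.12. In heart and tail cells 0 of these 18 were called at both thresholds by edgeR. By its adjusted p alone 9 were lower and 2 higher in heart cells, and 2 lower and 2 higher in tail cells, beside the shares of all genes given above for that threshold.

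Of 8 further genes that act with the fork, in chromatin assembly, DNA methylation or clamp handling, 5 rose in kidney cells. Among them were the histone chaperone Nasp (1.63, SE 0.19) and the remodeller Hells (1.49, SE 0.19). In heart cells 4 fell, with Asf1b (-1.74, SE 0.45) and Chtf18 (-1.21, SE 0.30) the most. Of 18 further nucleotide genes, 6 fell in heart cells, with Nme1, a nucleoside diphosphate kinase, at -1.84 (SE 0.18), and Ctps, CTP synthase, at -1.17 (SE 0.13). This list did not share the rise in kidney cells, where 1 of the 18 rose past both thresholds and the median log2 fold change was 0.12. By edgeR's adjusted p alone 5 were higher and 4 lower there. In tail cells 0 of the 18 were called at both thresholds. All 8 mitosis genes rose in kidney cells, led by Mki67 (2.28, SE 0.31) and Plk1 (2.28, SE 0.35), and 4 fell in heart cells, led by Cdk1 (-1.21, SE 0.28) and Bub1 (-1.11, SE 0.39). In tail cells 0 mitosis genes were called at both thresholds, with 2 past the adjusted p alone in edgeR.

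The 20 further G1/S regulators were mixed. In heart cells 2 rose and 5 fell, with the cell cycle inhibitor Cdkn1b at 1.13 (SE 0.20), E2f2 at 1.08 (SE 0.32), cyclin D1 (Ccnd1), which opens the G1/S transition, at -2.89 (SE 0.12) and E2f6 at -1.72 (SE 0.12). In kidney cells 4 rose and 4 fell, with Ccna2 (1.92, SE 0.35) and E2f7 (1.63, SE 0.23) rising and E2f6 (-1.57, SE 0.12) and Ccnd2 (-1.56, SE 0.16) falling. In tail cells Cdk6 rose (1.06, SE 0.25), and Ccnd2 (-1.17, SE 0.16) and Ccnd1 (-1.02, SE 0.11) fell.

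RefSeq promoters, from 250 bases before to 50 bases after each start, were at hand for 32 of the 39 genes, 37 promoters in all. Mcm4, Gins1, Gins2, Gins4, Rfc2, Pole and Ccne2 had no entry. Promoters with at least 1 of the 4 E2F words on either strand were found for 13 of the 32 genes (40.6%) and for 704 of 27025 genes with a promoter (2.6%). The word CCAAT, bound by NF-Y, was found on either strand for 59.4% of the 32 genes and 41.1% of all genes, and TTTGAA or TTCGAA, the cell cycle homology region of mitotic promoters, for 18.8% and 21.7%. These matches describe letters in a window and are not binding sites.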

How the data were processed

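RNA of 18 libraries was measured by stranded total RNA-seq. The authors trimmed single-end reads by quality, aligned them with Bowtie2 through RSEM, which estimated a count per gene (the submitters' notes list Bowtie), and deposited these expected counts without normalization. The paper names GRCm38, whereas the submitters' processing notes list mm9. The table gives Ensembl IDs only, so coordinates here come from GENCODE M21 and RefSeq on GRCm38. Expected counts were rounded to whole numbers. Library totals lay between 17927838 and 32245168 counts.

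Genes were filtered by filterByExpr (16577 kept), scaled by TMM and fitted together over all 18 libraries with edgeR 4.0.16 (R 4.3.3, limma 3.58.1) by the quasi-likelihood test, and p-values were adjusted by Benjamini-Hochberg across the 16577 genes. Transplanted and cultured cells were called different at an adjusted p below 0.05 with a change of more than 1 on the log2 scale, whereas for organs and interactions the adjusted p sufficed. The SE is the log2 fold change divided by the square root of F. The 39 genes and the other lists were chosen with earlier results of these data known. All 39 genes are named. Values per library are given for the 3 called genes with the largest rise and fall in each transplant comparison, the 2 with the smallest adjusted p in each interaction, and Pcna, Mcm2, Mcm5, Cdc6, Rrm2, Tyms, Tk1, Ccne1, Ccne2, E2f1 and Uhrf1. From each other list the 2 largest called changes in each direction are named, except 1 that is not reported here. In simulated counts for KFs against KFc over 16200 genes, 83 of 100 genes changed by 1.5 on the log2 scale were recovered, 97 of 100 changed by 3, and 5 calls were false. The simulated counts had the same spread for a gene in all groups, whereas real KFs libraries differed more than KFc libraries. The figures thus do not give the recovery or the false calls of the real comparison.

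Alternatives were DESeq2 1.42.0, its size factors, library size alone, no or another count filter, the 2 compared groups alone, another fold limit, a replicate block, and leaving out each library. Leaving out KFs replicate 3 from comparisons without that group was added after seeing the data. This fit called 13 of the 39 genes in heart and 2 in tail cells for transplanted against cultured cells. It called 13 for HFc against TFc, 21 for KFc against TFc, 30 for HFc against KFc and 23 for HFs against TFs. For the heart minus tail response it called 27. Figures were drawn with matplotlib 3.10.9 in Python 3.11.15.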

Additional observations from a re-analysis of the deposited data

Results flagged for a closer look

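Responses to transplantation that differed between organs were tested as interaction contrasts in edgeR's quasi-likelihood test. The heart and kidney responses differed for 34 of the 39 genes, with Pole at -2.58 (adjusted p = 1.71e-05) and Mcm3 at -2.76 (adjusted p = 4.10e-05) on the log2 scale. The heart and tail responses differed for 25 genes, with Pole at -1.67 (adjusted p = 0.000467) and Rfc2 at -0.93 (adjusted p = 0.000698) in edgeR. The kidney and tail responses differed for 8 genes, with Ccne1 at 1.92 (adjusted p = 0.0132) and Ccne2 at 1.70 (adjusted p = 0.0198) in edgeR. Groups of 3 libraries were too small for the test of single libraries that stand apart.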

How the results depend on the processing

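No gene or count reversed direction. Counts of the 39 genes called moved by over 1.5 times as follows. For the kidney minus tail response (8), DESeq2 gave 15, library size alone 14, no count filter 5 and the added fold limit 5. For HFc against TFc (9), library size alone gave 4, the 2 groups alone 21 and the fold limit 1. For KFc against TFc (19), the 2 groups alone gave 29 and the fold limit 2. For KFs against TFs (6), the 2 groups alone gave 0 in edgeR, with 2 at an unadjusted p below 0.05, and the fold limit 1. HFs against KFs (30) had 12 in the 2 groups alone. The fold limit gave 17 for HFc against KFc and 14 for HFs against TFs. The adjusted p alone gave 28 in heart, 34 in kidney and 11 in tail cells. Leaving out 1 library gave 2 to 4 for HFc against TFc, 9 to 13 for KFc against TFc, 14 to 25 for HFs against TFs, 1 to 13 for KFs against TFs, 15 to 25 for the heart minus tail and 1 to 24 for the kidney minus tail response. The causes were not tested. Fits without a library have fewer libraries, and fits of the 2 groups alone also take the spread from those groups only. Library size alone shifted the median of all genes by up to -0.25 (HFs against TFs). Of 7410 values of single genes, 6729 kept their side of the threshold, 471 lost and 210 gained it.

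Same-numbered libraries were not shown to be paired: over 27 pairs the deviations correlated between -0.139 and 0.079. A fit with a replicate block called 14 genes in heart, 20 in kidney and 3 in tail cells, 9 for HFc against TFc, 18 for KFc against TFc, 28 for HFc against KFc, 21 for HFs against TFs, 6 for KFs against TFs, 30 for HFs against KFs, and 22, 6 and 34 for the heart minus tail, kidney minus tail and heart minus kidney responses.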
